A study of Rattus norvegicus with 12 samples.

Results

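The genes described here encode the proteasome and a set of ubiquitin ligases of striated muscle, measured in the infarcted rat heart. They were taken by name from the gene table: every symbol that begins with Psma, Psmb, Psmc, Psmd, Psme, Psmf or Psmg and a number, without the 3 interferon-inducible catalytic subunits (Psmb8, Psmb9 and Psmb10), plus Fbxo32, Trim63, Trim54 and Trim55. The rule gave 48 of the 30560 genes listed, 44 by the prefix and 4 ligases. Of these, 46 had at least 10 counts in total and were tested. Psma8, the alpha subunit known from testis, had 1 count, and Psme1-ps1, a pseudogene of Psme1, had 5 counts, and neither was tested. By role, 30 of the tested genes encode subunits of the core particle and the regulatory particle (6 alpha, 7 beta, 6 ATPase and 11 other subunits), 5 encode activators and an inhibitor, 5 encode assembly chaperones, and 4 are the ligases. Psmc3ip and Psme3ip1 matched by name only and encode no subunit. Psma3, Psmb11, Psmd9 and Psmd10 were not analysed here.

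RNA came from the hearts of 12 male Wistar rats operated on at 7 weeks of age, with 1 library per rat and 4 rats per group. The MI rats had their left anterior descending coronary artery tied off permanently and received vehicle (carboxymethylcellulose) by daily gavage for 8 weeks. The MI + UA rats had the same ligation and received urolithin A (UA), a gut microbial metabolite of ellagitannins known to induce mitophagy, by the same route for the same time. The Sham rats had their chest opened without a ligature and received vehicle, so that UA was not given without infarction in these libraries. The label of rat 66 puts it in MI + UA, but it stands among the vehicle-treated MI rats in the study's echocardiography data, and it was counted by its label. Total RNA of 20 µm sections through a fixed, paraffin-embedded block of the middle heart was sequenced after removal of ribosomal RNA, so each library mixes surviving muscle, scar and other cells in unknown parts.

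The proteasome degrades proteins that carry ubiquitin chains. In the core particle, stacked alpha and beta rings enclose the catalytic sites of Psmb5, Psmb6 and Psmb7, and the regulatory particle caps the core, binds ubiquitin and unfolds the substrate with its ATPase ring. Ubiquitin is attached by ligases, of which Fbxo32 (atrogin, also MAFbx) and Trim63 (MuRF1) are known as genes that rise in wasting muscle under FOXO transcription factors, while Trim55 (MuRF2) and Trim54 (MuRF3) encode their sarcomere-associated relatives. Proteasome subunit genes are known targets of the transcription factor encoded by Nfe2l1, which binds antioxidant response elements.

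Promoter sequences show where such motifs lie in these genes. RefSeq promoters of the rat build GRCr8 were given for 41 of the 48 genes, and the 250 bases before each start were searched on both strands for the letters TGACNNNGC (the core of the antioxidant response element), GTAAACA (a FOXO motif) and CCAAT (the CCAAT box). TGACNNNGC stood in 5 of the 41 promoters (12.2%) and in 3373 of all 33469 promoters of the table (10.1%), GTAAACA in 1 of 41 (2.44%) and 3.21% of all, and CCAAT in 19 of 41 (46.3%) and 34% of all. The first 5 sequences below are the windows that hold TGACNNNGC and the last is the window that holds GTAAACA, each shown with 10 bases on either side, in the direction of the gene, with the motif in capitals. They lie at chr15:32047421-32047449 (minus strand), chr10:55737854-55737882, chr5:144254980-144255008, chr9:94157796-94157824, chr14:108706578-108706606 and chr5:151817021-151817047 (all plus strand). In Psme4 and Trim63 the capitals are the reverse complement of the motif, and in Psmb2 the first base of the motif is also the last base of a CCAAT box.
Psmb5: cgtgaagctgTGACGTCGCggcgttgccc
Psmb6: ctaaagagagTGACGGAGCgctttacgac
Psmb2: cccgcgccaaTGACCGGGCggtcgcatat
Psmd1: accagatctaTGACCTCGCgagaattata
Psme4: ggagaaagccGCTGGGTCAcctcctcgcc
Trim63: aatctgttctTGTTTACgacccccatt
Psmb5 and Psmb6 encode catalytic subunits, Psmb2 and Psmd1 other subunits, and Psme4 an activator. A match is a stretch of letters and was not measured as a binding site.

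Reads on genes numbered 6228706 to 8958828 in Sham, 6829591 to 12743184 in MI and 6819444 to 19031695 in MI + UA, and mitochondrially encoded genes took 50.2% to 58.6% of them. The 48 genes together took 0.123% to 0.150% of the reads on genes. Reads on genes made up 46.9% to 48.3% of all reads passed to the counter in Sham, 43.3% to 44.8% in MI and 42.9% to 47.2% in MI + UA. Every MI rat lay below every Sham rat in this share, and its part in the differences below was not tested. The 11 cardiomyocyte markers measured, all detected, were Myh6, Tnnt2, Tnni3, Tnnc1, Actc1, Actn2, Ryr2, Myl2, Myl3, Mybpc3 and Ttn. They summed to 49568 to 56394 CPM (a gene's count relative to the TMM-scaled total of its library) in Sham, 35124 to 41364 in MI and 36612 to 48107 in MI + UA. Fibroblast markers (10 genes) summed to 1215 to 1531 CPM, 2365 to 3811 CPM and 2364 to 3862 CPM in the same order, and macrophage markers (10 genes) to 134 to 170 CPM, 268 to 427 CPM and 225 to 455 CPM. In these bulk libraries, fewer cells of a type and less RNA per cell cannot be told apart.

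After infarction, messenger RNA of proteasome subunits from both the core and the regulatory particle was lower than in Sham, and so was Fbxo32. Of the 46 genes tested, 45 had a log2 fold change below 0, against 47.0% of all 18182 genes tested, and 11 were called, which here means an adjusted p under 0.05 in edgeR's quasi-likelihood test with Benjamini-Hochberg adjustment over all genes tested. All 11 were lower in MI, and the background of genes called lower was 5.53%. Among the 11986 genes with an average log2 CPM of at least 1, 984 were called lower. The median log2 fold change of the 46 genes was -0.26, that of all genes tested was 0.03, and the range over the 46 ran from -1.47 (Psmg3) to 0.09 (Psme3). An unadjusted p under 0.05 was reached by 25 genes, all lower, where the background for lower genes was 11.3%. The MI rats lay entirely below the Sham rats for 18 genes (background 7.56%) and entirely above them for 0 (background 8.12%). Among the same 11986 genes, 1876 were lower with an unadjusted p under 0.05, and for 1284 the MI rats lay entirely below the Sham rats. These shares, like that of the 984, are larger than the backgrounds over all genes tested. The cardiomyocyte markers were also lower in MI: 10 of 11 were called lower, and their log2 fold changes had a median of -0.43 and ran from -1.08 to -0.23. Their part in the fall of the proteasome genes was not tested.

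**Figure D1:**
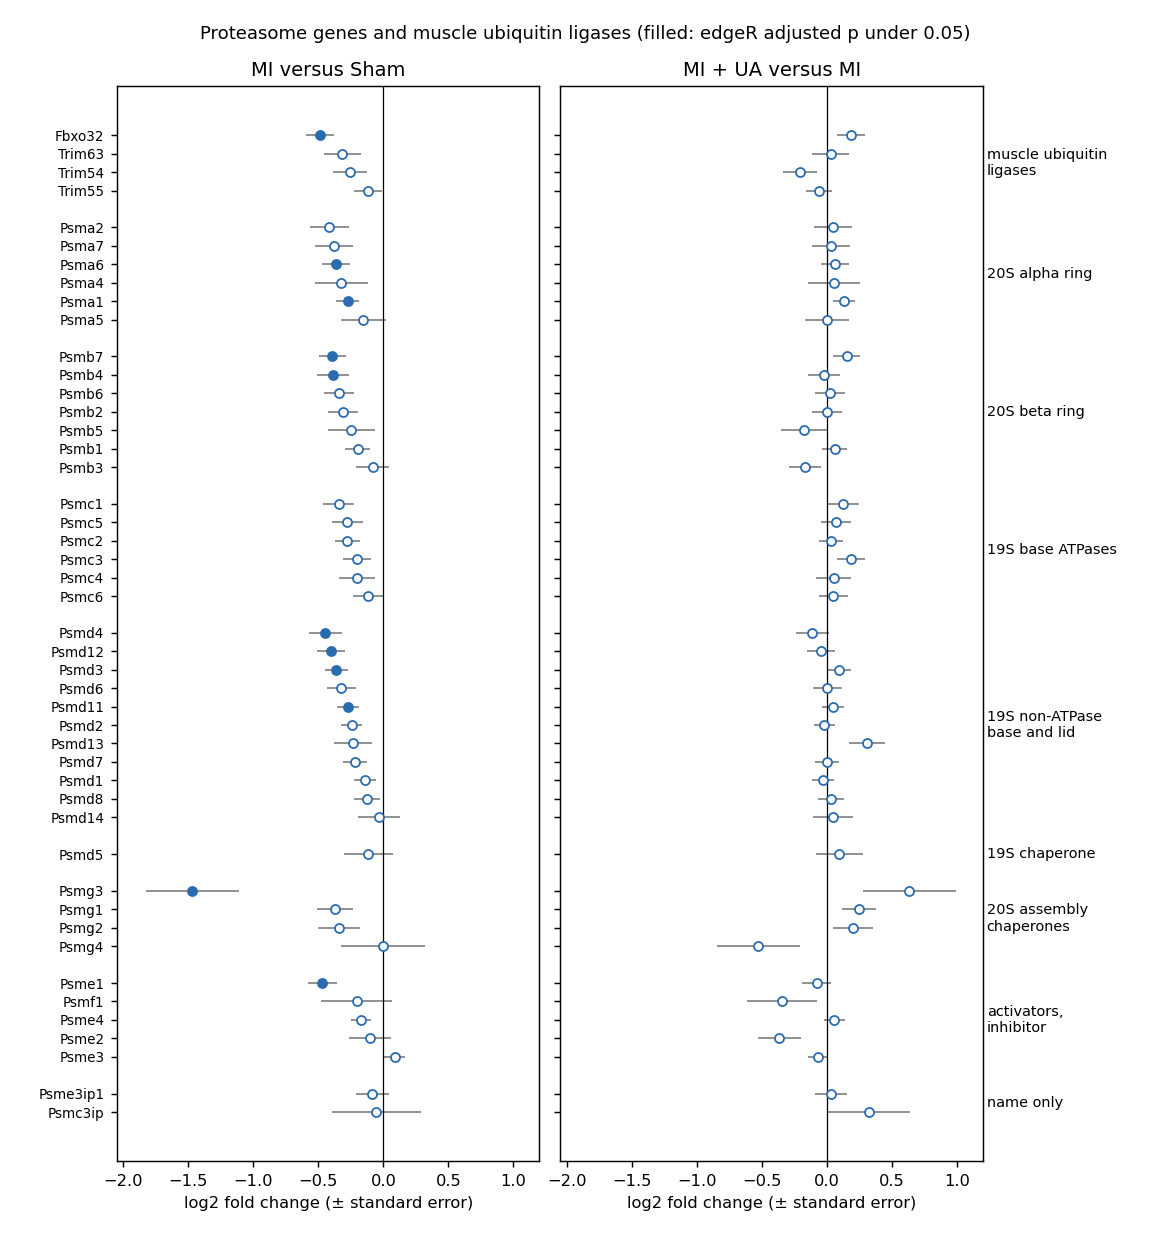
Log2 fold change (x axis) with its standard error for each of the 46 genes tested, grouped by role, for MI versus Sham (left) and MI + UA versus MI (right). Filled points have an edgeR adjusted p under 0.05. On the left 45 of 46 points lie below 0 and 11 are filled, and on the right the points lie around 0 and none is filled.

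The shift was present in each infarcted rat. Taking, for each rat, the median over the 46 genes of its log2 CPM minus the mean of the Sham rats, values in Sham ran from -0.07 to 0.11, the MI rats lay at -0.29, -0.20, -0.31 and -0.24, and the MI + UA rats at -0.18, -0.24, -0.31 and -0.18 (rats in the order 36, 57, 61 and 89 for MI and 29, 58, 64 and 66 for MI + UA, which is kept below, with 12, 17, 32 and 38 for Sham). Neither infarcted group overlapped the Sham rats, and the MI and MI + UA rats overlapped each other. The same median over the 11986 genes with an average log2 CPM of at least 1 stayed between -0.01 and 0.02 in all 12 rats. The coefficient of variation of CPM among the rats of a group had a median over the 46 genes of 11.1% in Sham, 10.9% in MI and 8.69% in MI + UA.

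**Figure D2:**
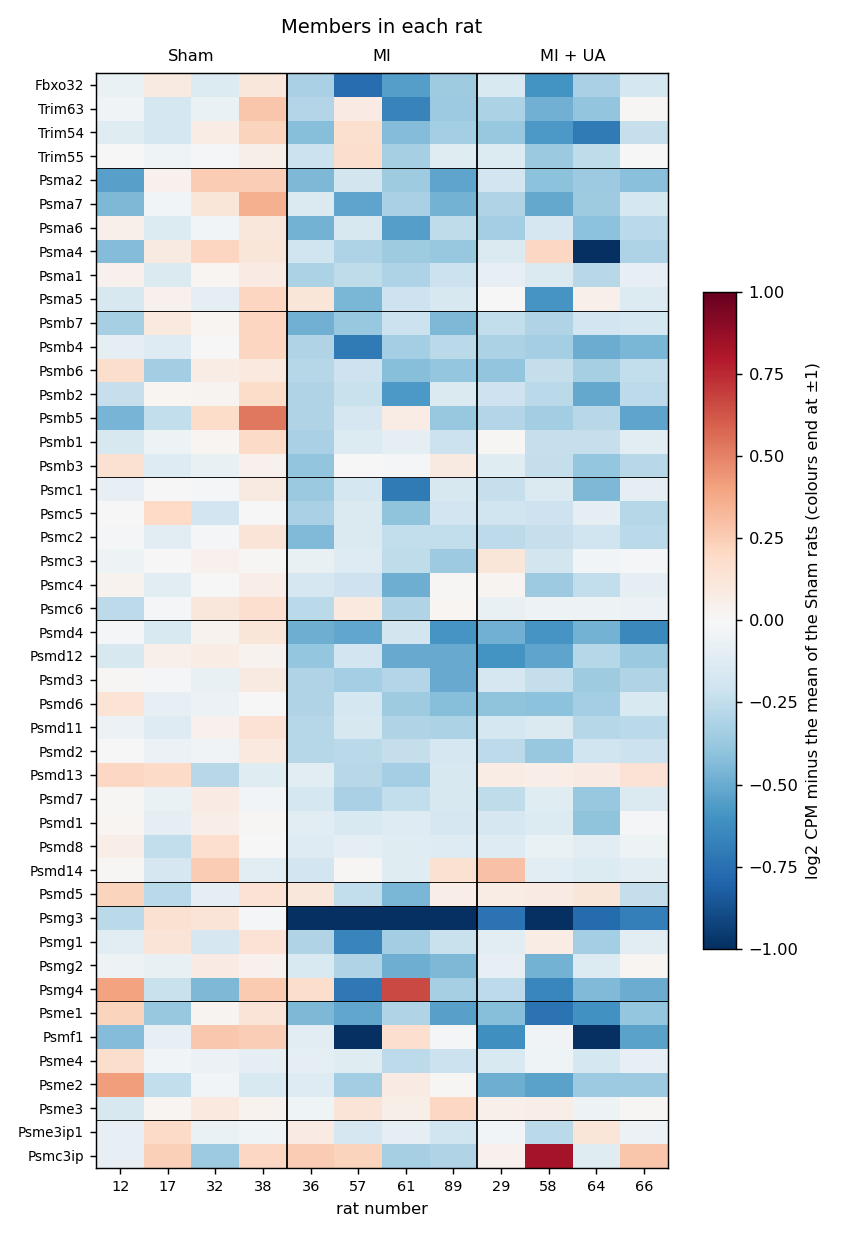
Log2 CPM minus the mean of the Sham rats (colour, ending at ±1) for the 46 genes tested (rows, in the order of the plot of log2 fold changes) in each of the 12 rats (columns). The 8 rats with infarction are blue in most rows, with Psmg3 the deepest row, and the medians over the genes run from -0.31 to -0.18 in them.

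Among the muscle ligases, Fbxo32 was called in MI versus Sham with all rats, and Trim63 and Trim54 were called, of the alternatives run, only without MI rat 57. Fbxo32 (ENSRNOG00000006738), the F-box subunit of a ligase that targets, among others, calcineurin and MyoD, measured 83.5, 93, 79.6 and 94.7 CPM in the Sham rats, 69.8, 51.6, 59.7 and 68.5 CPM in the MI rats and 78.6, 57.9, 69.7 and 77.5 CPM in the MI + UA rats. Every MI rat was below every Sham rat, and the 4 MI + UA rats were also below the lowest Sham rat but overlapped the MI rats. The log2 fold change was -0.49 (standard error, SE, of 0.11 and edgeR adjusted p = 0.00512) in MI versus Sham, and the call held in all 8 fits that each left out 1 Sham or MI rat. Trim63 (ENSRNOG00000016543), a ligase of thick filament proteins, measured 27.5, 25, 26.9 and 34.2 CPM in the Sham rats, 23, 29.8, 17.7 and 21.9 CPM in the MI rats and 22.6, 20.2, 21.4 and 28.4 CPM in the MI + UA rats. Rat 57 exceeded 3 of the 4 Sham rats and the groups overlapped, and the log2 fold change of -0.31 (SE 0.14) did not pass edgeR's test (adjusted p = 0.181). Leaving out rat 57 gave Trim63 a log2 fold change of -0.44 (edgeR adjusted p = 0.0427). Of the 41 genes whose promoters were searched, Trim63 was the one with the FOXO motif shown above, and the promoters of Fbxo32 and Trim55 were not searched. Of the FOXO genes themselves, Foxo1 had a log2 fold change of -0.14 (edgeR adjusted p = 0.386) and Foxo3 of 0.18 (edgeR adjusted p = 0.211).

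Trim54 and Trim55, the other 2 MuRF genes, were not called in MI versus Sham with all rats. Trim54 (ENSRNOG00000006146), which binds microtubules and the sarcomere, measured 56.2, 54, 64.3 and 71.1 CPM in the Sham rats, 45.5, 68.1, 45.3 and 48.2 CPM in the MI rats and 47, 40.8, 37.4 and 51.9 CPM in the MI + UA rats. In MI, 3 rats were below all Sham rats and rat 57 was above 3 of them. Its log2 fold change in MI versus Sham was -0.26 (SE 0.13, edgeR adjusted p = 0.240), and -0.41 without rat 57 (edgeR adjusted p = 0.0267). Trim55 (ENSRNOG00000012723), a titin-associated ligase, measured 54.1, 52.5, 53.5 and 56.4 CPM in the Sham rats, 46.6, 61.2, 43.1 and 49.8 CPM in the MI rats and 49.1, 41.9, 45.3 and 54.2 CPM in the MI + UA rats. Its MI values ran from below the lowest to above the highest Sham rat, with a log2 fold change of -0.12 (SE 0.10, edgeR adjusted p = 0.555). That log2 fold change was -0.22 without rat 57 and -0.05 without rat 61. Rat 57 thus had the highest Trim63, Trim54 and Trim55 of the MI rats and their lowest Fbxo32.

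**Figure D3:**
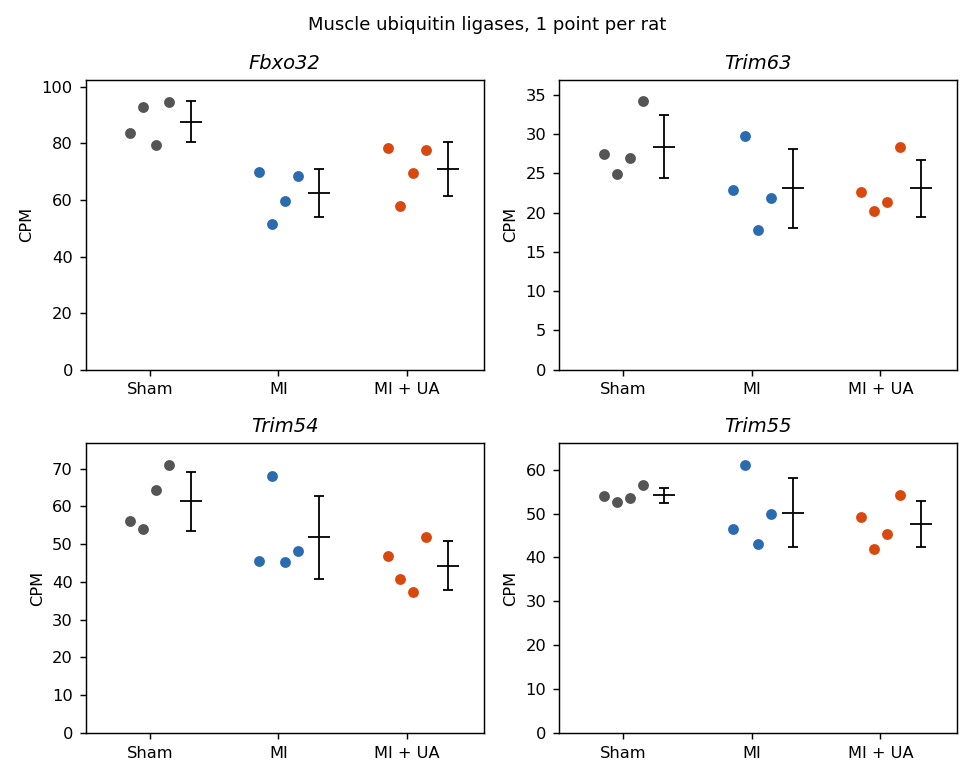
CPM (y axis, from 0) of the 4 muscle ubiquitin ligases in each rat, with the mean and SD of each group of 4 beside the points. Fbxo32 separates MI from Sham without overlap, and 1 MI rat, rat 57, lies above the other 3 for Trim63, Trim54 and Trim55.

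Since the ligases are muscle genes and the muscle markers fell, each ligase was also set against the mean log2 CPM of the 11 cardiomyocyte markers of the same library, with two-sided exact permutation tests whose smallest possible p is 0.0286 (70 groupings) and which were adjusted over 8 tests. The markers did not fall alike, with log2 fold changes in MI versus Sham from -1.08 to -0.23, so the ratios depend on the markers chosen. Fbxo32 relative to the markers was -4.21, -4.11, -4.43 and -4.27 in the Sham rats and -4.12, -4.60, -4.27 and -4.08 in the MI rats on the log2 scale. The difference in means was -0.01 (exact permutation p = 0.914, adjusted p = 0.914), with overlapping groups, and it was 0.10 without rat 57. Trim55 relative to the markers was -4.84, -4.93, -5.00 and -5.01 in Sham and -4.70, -4.36, -4.74 and -4.54 in MI. All 4 MI rats exceeded all 4 Sham rats, by 0.36 in the means (exact permutation p = 0.0286, the smallest possible, adjusted p = 0.152), and the adjusted p did not pass 0.05. Trim54 relative to the markers was 0.23 higher in MI than in Sham (15 of 16 rat pairs, exact permutation p = 0.0571, adjusted p = 0.152), a difference that was 0.11 without rat 57. Trim63 differed by 0.17 (exact permutation p = 0.257, adjusted p = 0.411), and by 0.07 without rat 57.

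**Figure D4:**
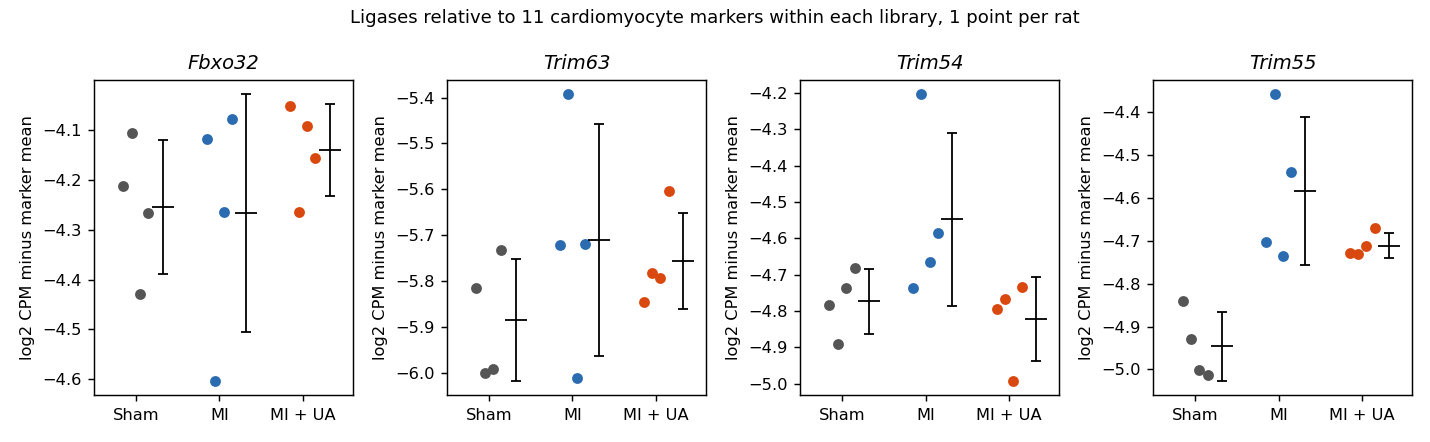
Log2 CPM of each ligase minus the mean log2 CPM of 11 cardiomyocyte markers in the same library (y axis, not from 0), 1 point per rat, with the mean and SD of each group of 4. The Trim55 values of the MI rats lie above those of the Sham rats, and the Fbxo32 values of the 3 groups overlap.

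In the core particle and the regulatory particle, 30 of 30 subunit genes had a log2 fold change below 0 in MI versus Sham (background 47.0%), 8 were called lower (background 5.53%) and the median was -0.28, against 0.03 over all genes tested. Summed over the 30 genes, the Sham rats reached 773 CPM with an SD of 45.5 (n = 4), the MI rats 644 CPM with an SD of 14.3 (n = 4), and the MI + UA rats 658 CPM with an SD of 20.3 (n = 4). The 4 Sham rats spanned 736 to 831 CPM, the MI rats 632 to 663 CPM and the MI + UA rats 631 to 675 CPM, so both infarcted groups lay below the Sham range. By ring or subcomplex, the numbers called were 2 of 6 alpha subunits, 2 of 7 beta subunits, 0 of 6 ATPases and 4 of 11 non-ATPase subunits of the base and lid, to be read against the same 5.53%, at which a count of 0 among 6 genes does not set the ATPases apart. The 6 ATPases had log2 fold changes from -0.34 (Psmc1) to -0.12 (Psmc6), of which 3 had an unadjusted p under 0.05 (Psmc1, Psmc2 and Psmc5), and their smallest edgeR adjusted p was 0.0620 (Psmc2).

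Psmd3 and Psmd12 of the regulatory particle had the smallest adjusted p of the 30 subunits. Psmd4 (ENSRNOG00000021042), a ubiquitin receptor, measured 13.7, 12.4, 14.1 and 15 CPM in the Sham rats, 9.80, 9.57, 12.1 and 9.12 CPM in the MI rats and 9.83, 9.12, 9.88 and 8.78 CPM in the MI + UA rats. Each MI and MI + UA rat was below the lowest Sham rat, and the log2 fold change in MI versus Sham was -0.45 (SE 0.13, edgeR adjusted p = 0.0276). Psmd3 (ENSRNOG00000028103), a lid subunit, measured 36.9, 36.1, 34.8 and 39 CPM in the Sham rats, 29.8, 29, 29.9 and 25.8 CPM in the MI rats and 32.6, 31.1, 28.7 and 29.7 CPM in the MI + UA rats. Both infarcted groups again lay below the Sham range (MI versus Sham: log2 fold change -0.36, SE 0.09, edgeR adjusted p = 0.0100). Psmd12 (ENSRNOG00000003117), a lid subunit, measured 24.8, 28.7, 29.3 and 28.4 CPM in the Sham rats, 21.2, 24.3, 19.5 and 19.6 CPM in the MI rats and 18.3, 19.3, 22.7 and 21.4 CPM in the MI + UA rats. Rat 57, the highest MI rat, was still just below rat 12, the lowest Sham rat (log2 fold change -0.40, SE 0.11, edgeR adjusted p = 0.0167). Psmd11 (ENSRNOG00000005538), a lid subunit known to raise proteasome activity when in excess, measured 54.4, 51.8, 58.2 and 62.8 CPM in the Sham rats, 46.4, 50.8, 46 and 45.5 CPM in the MI rats and 50.3, 51.2, 46.4 and 47 CPM in the MI + UA rats. Its fall was the smallest of those called (-0.27, SE 0.08, edgeR adjusted p = 0.0419), again without overlap of the Sham rats with either infarcted group. In the fits that left out 1 Sham or MI rat, the Psmd3 call held in 8 of 8, Psmd12 in 5 of 8 (largest adjusted p = 0.0608, without rat 89), Psmd4 in 3 of 8 (0.0950, without rat 89) and Psmd11 in 3 of 8 (0.156, without rat 38).

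Of the alpha ring, which gates the entry of substrate, Psma6 and Psma1 were called. Psma6 (ENSRNOG00000007114) measured 29.9, 26.1, 28.3 and 31.1 CPM in the Sham rats, 20.8, 25.7, 19.6 and 24.1 CPM in the MI rats and 22.7, 25.6, 21.7 and 23.9 CPM in the MI + UA rats, and its highest MI rat was below its lowest Sham rat (log2 fold change -0.36, SE 0.11, edgeR adjusted p = 0.0283). Psma1 (ENSRNOG00000011745) measured 37.8, 33.2, 37 and 38.7 CPM in the Sham rats, 29.5, 30.7, 29.6 and 31.5 CPM in the MI rats and 34.5, 33.1, 30.2 and 34.5 CPM in the MI + UA rats. Its MI rats lay below its Sham rats and its MI + UA rats lay in between, overlapping both (MI versus Sham: log2 fold change -0.28, SE 0.09, edgeR adjusted p = 0.0454). Psma2, Psma7, Psma4 and Psma5 had log2 fold changes of -0.42, -0.38, -0.32 and -0.15 that did not pass the test, and their groups overlapped. For Psma6 the call held in 3 of 8 fits that left out 1 rat (largest adjusted p = 0.102, without rat 61), and for Psma1 in 1 of 8 (0.131, without rat 38). The Psma1 call was also lost with rat 66 counted in MI (edgeR adjusted p = 0.0964) and with no filter on low counts (0.0773).

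In the beta ring, Psmb7 was the one catalytic subunit called with all rats. Psmb7 (ENSRNOG00000011732), the trypsin-like subunit, measured 38.1, 51.5, 48.8 and 55.8 CPM in the Sham rats, 34.4, 37, 41.5 and 35.2 CPM in the MI rats and 40.5, 39, 42.1 and 42.5 CPM in the MI + UA rats. Rat 12 of the Sham group was below MI rat 61, so that the groups overlapped, and the other 3 Sham rats were above all rats with infarction (log2 fold change -0.39, SE 0.11, edgeR adjusted p = 0.0174). Psmb6 (ENSRNOG00000019551), the caspase-like subunit, measured 23.5, 16.3, 21.9 and 22.3 CPM in the Sham rats, 17, 18, 15.5 and 15.9 CPM in the MI rats and 15.8, 17.6, 16.5 and 17.6 CPM in the MI + UA rats. Here rat 17 was the low Sham rat, and the log2 fold change of -0.34 did not pass the test (SE 0.12, edgeR adjusted p = 0.0624). Without that rat Psmb6 was called, at -0.45 (edgeR adjusted p = 0.0127). Psmb5 (ENSRNOG00000013386), the chymotrypsin-like subunit, measured 8.53, 9.96, 13.5 and 17 CPM in the Sham rats, 9.58, 10.5, 12.5 and 9.04 CPM in the MI rats and 9.66, 9.25, 9.74 and 8.16 CPM in the MI + UA rats. The Sham rats alone spanned from below to above all MI rats, with a log2 fold change of -0.25 (SE 0.18, edgeR adjusted p = 0.445), which was -0.03 without rat 38 and -0.39 without rat 12. Psmb4 (ENSRNOG00000020979), a structural beta subunit, measured 14.9, 14.6, 16 and 18.5 CPM in the Sham rats, 12.9, 9.72, 12.6 and 13.2 CPM in the MI rats and 12.8, 12.6, 11.2 and 11.6 CPM in the MI + UA rats and was called without overlap of the groups (log2 fold change -0.39, SE 0.13, edgeR adjusted p = 0.0493). In the fits that left out 1 rat, the Psmb7 call held in 4 of 8 (largest adjusted p = 0.0851, without rat 38) and the Psmb4 call in 0 of 8 (0.182, without rat 38). Psmb2 and Psmd1, whose promoters hold the TGACNNNGC motif as those of Psmb5 and Psmb6 do, had log2 fold changes of -0.31 and -0.14 (edgeR adjusted p = 0.0996 and 0.344), and none of the 5 genes with the motif was called with all rats, a count that does not set them apart from the 5.53% of all genes called lower. The 7 genes whose promoters were not searched include Psmd12 and Fbxo32, which were called.

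Psmb8, Psmb9 and Psmb10 replace Psmb5, Psmb6 and Psmb7 in the interferon-induced immunoproteasome, and none of the 3 was called in MI versus Sham. That count does not set them apart from the 5.53% of all genes called lower. Their log2 fold changes were -0.32 (SE 0.29), -0.38 (SE 0.31) and -0.19 (SE 0.25), with standard errors above those of most subunits. Psmb8 averaged 3.30 ± 0.926 CPM (SD, n = 4) in Sham against 2.59 ± 1.12 CPM (SD, n = 4) in MI. For Psmb9 the averages were 2.13 ± 0.441 CPM (SD, n = 4) and 1.58 ± 0.463 CPM (SD, n = 4), and for Psmb10 they were 3.43 ± 0.876 CPM (SD, n = 4) and 3.02 ± 0.336 CPM (SD, n = 4). Within a library, Psmb8 relative to Psmb5 differed between MI and Sham by -0.18 on the log2 scale, Psmb9 relative to Psmb6 by -0.10 and Psmb10 relative to Psmb7 by 0.23 (two-sided exact permutation tests, p = 0.743, 0.629 and 0.486, each with an adjusted p of 0.771 over 6 tests). Leaving out 1 rat moved the first from -0.48 to 0.12 and the second from -0.26 to 0.03, changing their sign, and the last from 0.06 (without rat 38) to 0.48 (without rat 12). Between MI + UA and MI the same ratios differed by 0.12, 0.50 and -0.26, in 10, 13 and 12 of 16 rat pairs (two-sided exact permutation tests, p = 0.771, 0.171 and 0.257, adjusted p = 0.771 for each). Omission of 1 rat moved the second of these between 0.36 (without rat 64) and 0.70 (without rat 66), and the last between -0.44 (without rat 64) and -0.15 (without rat 66). The SD of these ratios among the 4 rats of a group ran up to 0.71.

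The activators, which open the core in place of the regulatory particle, had Psme1 as the 1 called gene in MI versus Sham. Psme1 (ENSRNOG00000019041), the alpha subunit of the interferon-inducible PA28 ring, measured 102, 67.4, 89.1 and 95.9 CPM in the Sham rats, 64.2, 61.2, 70.9 and 59.9 CPM in the MI rats and 65, 52.3, 57.5 and 66.9 CPM in the MI + UA rats. Rat 17 was the low Sham rat and lay below MI rat 61, and the other 3 Sham rats were above all rats with infarction. The log2 fold change was -0.47 (SE 0.11, edgeR adjusted p = 0.00838) and the call held in all 8 fits that left out 1 rat. Its counts are uncertain to the extent that it shares reads with the pseudogene Psme1-ps1. Psme2 (ENSRNOG00000019246), the partner subunit, measured 11, 6.93, 8.08 and 7.39 CPM in the Sham rats, 7.53, 6.43, 8.72 and 8.31 CPM in the MI rats and 5.83, 5.65, 6.36 and 6.36 CPM in the MI + UA rats. Apart from Sham rat 12 the Sham and MI values interleaved (log2 fold change -0.10, SE 0.16, edgeR adjusted p = 0.777). Psme3 (ENSRNOG00000053448), the nuclear PA28 form, measured 81.9, 92.7, 98 and 93.7 CPM in the Sham rats, 88.7, 99.7, 95.1 and 105 CPM in the MI rats and 94.8, 95.8, 88.1 and 91.9 CPM in the MI + UA rats and was the one gene of 46 with a log2 fold change above 0 (0.09, SE 0.08, edgeR adjusted p = 0.583). Psme1 minus Psme3 in log2 CPM was 0.31, -0.46, -0.14 and 0.03 in the Sham rats and -0.47, -0.70, -0.42 and -0.81 in the MI rats, overlapping at Sham rat 17. Psme4 (ENSRNOG00000060340), the PA200 activator, measured 296, 256, 252 and 245 CPM in the Sham rats, 246, 241, 218 and 225 CPM in the MI rats and 235, 253, 232 and 248 CPM in the MI + UA rats, with a log2 fold change of -0.17 that did not pass the test (SE 0.08, edgeR adjusted p = 0.177). The inhibitor Psmf1 (ENSRNOG00000009640), with 470 counts over the 12 libraries, measured 3.39, 4.33, 5.56 and 5.48 CPM in the Sham rats, 4.24, 1.72, 5.19 and 4.56 CPM in the MI rats and 2.97, 4.50, 2.17 and 3.15 CPM in the MI + UA rats. The 3 groups overlapped (log2 fold change -0.21, SE 0.27, edgeR adjusted p = 0.722), and the log2 fold change was -0.0084 without rat 57 and -0.34 without rat 61. Psme1 and Psme2 lie beside each other in the genome with 1 gene between their starts in GRCr8, and Psmb4 and Psmd4, both called in MI versus Sham, lie with 6 genes between.

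**Figure D5:**
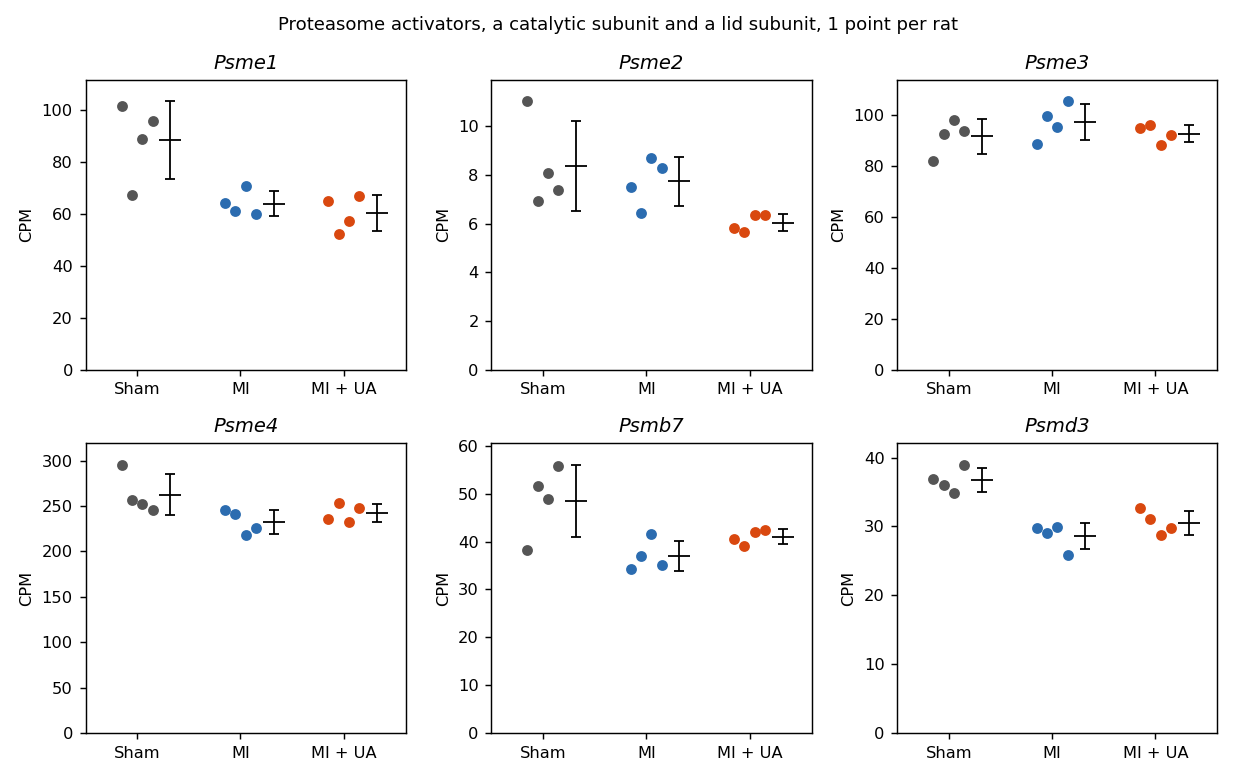
CPM (y axis, from 0) of the activators Psme1 to Psme4, the catalytic subunit Psmb7 and the lid subunit Psmd3 in each rat, with the mean and SD of each group of 4 beside the points. Psmd3 separates Sham from both infarcted groups, Psme1 and Psmb7 do so but for 1 Sham rat, and Psme3 is level across the groups.

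Of the genes that help assemble the core, Psmg3 had the deepest fall of all 46. Psmg3 (ENSRNOG00000001273), which with Psmg4 assists the alpha ring, measured 1.38, 1.88, 1.85 and 1.67 CPM in the Sham rats, 0.512, 0.627, 0.727 and 0.570 CPM in the MI rats and 0.971, 0.771, 0.947 and 1.01 CPM in the MI + UA rats, from 122 counts in all. No group overlapped another: the MI rats were lowest, the MI + UA rats intermediate and the Sham rats highest. The log2 fold change in MI versus Sham was -1.47 (SE 0.35, edgeR adjusted p = 0.00880), called in all 8 fits that left out 1 rat. Its partner Psmg4 had a log2 fold change of -0.000656 (SE 0.32), with a coefficient of variation of 43.6% among the MI rats, the highest of the 46 genes in that group. Psmg1 and Psmg2, which form the other chaperone pair, had log2 fold changes of -0.37 and -0.34 without overlap between MI and Sham but without passing the test (edgeR adjusted p = 0.0902 and 0.202). Psmd5, a chaperone of the ATPase base, had -0.12 (SE 0.19, edgeR adjusted p = 0.784), and the name-only matches Psme3ip1 and Psmc3ip had -0.09 and -0.05.

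UA given after infarction was not followed by a called change in any of these genes. In MI + UA versus MI, 0 of 46 were called, and 0 of all 18182 genes tested were called (background 0%), by edgeR and by DESeq2. An unadjusted p under 0.05 was reached by 2 of the 46 genes and by 3.79% of all genes, and the groups did not overlap for 3 of the 46 and for 2.34% of all. The log2 fold changes lay above 0 for 32 genes and below 0 for 14 (background below 0: 49.0%), with a median of 0.03. Without MI rat 61, 23 of the 46 lay below 0 and the median was -0.0008. The standard errors of the 46 log2 fold changes had a median of 0.12. MI versus Sham and MI + UA versus MI share the MI rats, and the values are therefore set side by side without a test of reversal.

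The 2 genes with an unadjusted p under 0.05, a count near the 3.79% of all genes, differed in direction. Each had an edgeR adjusted p of 0.9997. Psmd13 (ENSRNOG00000014109), a lid subunit, measured 9.91, 9.81, 7.07 and 7.87 CPM in the Sham rats, 7.97, 7.06, 6.75 and 7.66 CPM in the MI rats and 9.03, 8.99, 9.07 and 9.51 CPM in the MI + UA rats. All MI + UA rats were above all MI rats and within the range of the Sham rats (log2 fold change 0.31, SE 0.14). Psme2, whose values are given above, was lower in all 4 MI + UA rats than in all MI and all Sham rats (-0.37, SE 0.16). Psmg3, the third gene without overlap, was higher with UA by 0.63 on the log2 scale (SE 0.36). Psmg1 measured 11.8, 13.9, 11.3 and 14.1 CPM in the Sham rats, 10.3, 8.00, 9.96 and 10.8 CPM in the MI rats and 11.8, 13.4, 10.0 and 11.7 CPM in the MI + UA rats. Psmc3, an ATPase, measured 17.2, 17.8, 18.3 and 18 CPM in the Sham rats, 16.9, 16.3, 14.9 and 13.9 CPM in the MI rats and 19.4, 15.7, 17.5 and 17.6 CPM in the MI + UA rats. Both overlapped between MI + UA and MI, with log2 fold changes of 0.25 and 0.19 (SE 0.13 and 0.11). For the ligases the log2 fold changes were 0.18 for Fbxo32, 0.03 for Trim63, -0.20 for Trim54 and -0.06 for Trim55, with standard errors of 0.10 to 0.14, and the groups overlapped for each. Without rat 57 that of Trim54 was -0.05, and that of Fbxo32 ran from 0.11 (without rat 57) to 0.27 (without rat 58). Relative to the cardiomyocyte markers, Trim54 was lower by 0.27 on the log2 scale in MI + UA than in MI (difference -0.27, 15 of 16 rat pairs, exact permutation p = 0.0571, adjusted p = 0.152), and the difference was -0.16 without rat 57. The other 3 ligases differed by -0.13 to 0.12 on this scale (exact permutation p of 0.257 to 0.771). With rat 66 counted in MI, 0 genes were called as well, and Psmd13, Psme2 and Psmg3 each overlapped between the groups, since rat 66 (9.51, 6.36 and 1.01 CPM) lay above the lowest MI + UA value of Psmd13 and Psmg3 and below the highest of Psme2.

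The MI + UA rats were also compared with the Sham rats, which both comparisons share. Here proteasome subunits, Psme1 and Trim54 were lower than in Sham. Of the 46 genes, 42 had a log2 fold change below 0 (background 47.7%), with a median of -0.24 where all genes tested had 0.02, and 6 were called, all lower, against a background of 4.27% called lower. Psme1 had the smallest adjusted p, with a log2 fold change of -0.55 (SE 0.11, edgeR adjusted p = 0.00321), and in this comparison its groups did not overlap. Psmd4 followed with -0.56 (edgeR adjusted p = 0.00766), Psmd12 with -0.45 (edgeR adjusted p = 0.00947) and Psmb4 with -0.41 (edgeR adjusted p = 0.0429). Trim54 (-0.46, SE 0.13, edgeR adjusted p = 0.0283) and Psmd2, a scaffold of the base (-0.26, SE 0.08, edgeR adjusted p = 0.0419), were called here. In MI versus Sham they had -0.26 and -0.24 (edgeR adjusted p = 0.240 and 0.0545 with all rats), where Trim54 was called without rat 57 and Psmd2 under 7 of the 8 alternatives other than omission of a rat. The difference between the 2 comparisons was not tested. Fbxo32 had -0.30 (edgeR adjusted p = 0.0888). The groups did not overlap for 16 of the 46 genes, all lower (background 6.46%). The cardiomyocyte markers were again lower, with 10 of 11 called and a median of -0.39, and their part in these differences was not tested. Leaving out 1 rat moved the count of 6 to between 3 and 9, with 3 called without Sham rat 32, Sham rat 38, MI + UA rat 58 or MI + UA rat 64. Psme1, Psmd4 and Psmd12 were called in all 8 such fits, Trim54 in 4 (largest adjusted p = 0.119, without rat 38), Psmb4 in 2 (0.170, without rat 38) and Psmd2 in 1 (0.137, without rat 38). With rat 66 counted in MI the Psmb4 call was lost (edgeR adjusted p = 0.0811). The calls of Psmb4 (edgeR adjusted p = 0.0520) and Psmd2 (0.0756) were lost with no filter on low counts.

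The count of 11 in MI versus Sham likewise rested on single rats. It was 5 without Sham rat 32, Sham rat 38, MI rat 36 or MI rat 89, 6 without MI rat 61, and at most 11. In the 4 fits with 5 calls the median log2 fold change of the 46 genes stayed between -0.28 and -0.22, and calls over all genes also fell, from 1006 lower with all rats to between 690 (without rat 38) and 906 (without rat 36). Psmg3, Fbxo32, Psme1 and Psmd3 were called whichever rat was left out, and no fit that left out a rat called a gene higher. With no filter on low counts the calls of Psmd11 (edgeR adjusted p = 0.0610) and Psmb4 (0.0618) were lost as well. The Psmb4 call was also lost with only the 2 groups compared (edgeR adjusted p = 0.0531).

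Elsewhere in the ubiquitin and proteasome pathway, genes called in MI versus Sham were also lower. Of 104 tested genes on 8 lists, 16 were called in MI versus Sham, all lower (background 5.53%), and the median over the 104 log2 fold changes was -0.12. The cardiomyocyte markers were lower in the same rats, with 10 of 11 called and a median of -0.43, and their part in these counts was not tested. Among 11 other proteins bound to the proteasome, 3 were called: Zfand5, an activator known from muscle atrophy (-0.41, edgeR adjusted p = 0.00227), Txnl1, a thioredoxin-like subunit (-0.37, adjusted p = 0.0124), and Ecpas, a scaffold that binds the particle under stress (-0.28, adjusted p = 0.0192). None of 5 ubiquitin and E1 genes was called, and of 26 E2 conjugating enzymes 4 were: Ube2d1 (-0.42), Ube2b (-0.38), Ube2g2 (-0.35) and Ube2m (-0.31), with edgeR adjusted p of 0.00147, 0.00433, 0.0418 and 0.0108.

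A list of other ligases and their partners, not all confined to muscle, gave 5 calls among 21 genes tested. All 5 were lower, where the background of genes called lower was 5.53%. The 4 with the largest change were Fbxo40, a muscle F-box protein that targets Irs1 (-0.53, edgeR adjusted p = 0.000712), Fbxo21 (-0.48, adjusted p = 0.00746), Asb2 (-0.45, adjusted p = 0.00580) and Nedd4l, a ligase of ion channels (-0.38, adjusted p = 0.0111). The same background stands beside the counts for the next 3 lists, and 1 call among 12 or 13 genes does not set a list apart from it. One of 13 shuttle factors and genes of the Vcp complex was called, Sqstm1, the autophagy receptor p62 (-0.41, edgeR adjusted p = 0.00116), and of 13 deubiquitinases Usp2 (-0.64, adjusted p = 0.00385) and Usp13 (-0.37, adjusted p = 0.00509) were. Among 12 regulators of proteasome and atrophy genes, which are transcription factors, deacetylases, the glycanase Ngly1 and the secreted factor Mstn, the transcription factor Nfe2l1 was the one called. It measured 324, 327, 329.6 and 343 CPM in the Sham rats, 272, 265, 249 and 255 CPM in the MI rats and 267, 249.7, 256 and 288 CPM in the MI + UA rats, with every MI and MI + UA rat below every Sham rat (log2 fold change -0.35 in MI versus Sham, SE 0.07, edgeR adjusted p = 0.00312). In MI + UA versus MI, 0 of the 104 genes were called, and in MI + UA versus Sham 13 were, all lower (background 4.27%), where Nfe2l1 had -0.32 (edgeR adjusted p = 0.00709).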

How the data were processed

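The authors mapped the reads to the rat build mRatBN7.2 with STAR 2.6.1c, counted them per Ensembl gene with HTSeq, and deposited unnormalised counts of reads per gene. The HTSeq version was not given in the sources used here. Sample labels call the RNA polyA, whereas the protocol describes depletion of ribosomal RNA from a strand-specific library. The authors left 1 further MI + UA library out of their analysis, and it was not analysed here. Groups came from the sample labels. The dose of UA and the start of treatment are given differently within the sources and were not used.

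The 5 summary rows of the counter were left out. Genes with at least 10 counts over all libraries were kept (18182 of 30560). Counts were normalised by TMM and fitted with edgeR 4.0.16 (R 4.3.3) by the quasi-likelihood method, with the 3 groups in one fit, no covariate and Benjamini-Hochberg adjustment over all genes tested, threshold 0.05. CPM used TMM-scaled library sizes, and log2 CPM a prior count of 1. Ratios within a library were compared with two-sided exact permutation tests. Intervals and tests cover the spread between rats, each of which gave 1 library, and no 2 libraries of a group agreed within sampling noise (smallest chi-square per degree of freedom 1.77). The fit was tested on simulated data with 100 changed genes of each size. In MI versus Sham it recovered 17% of the genes changed by 0.4 on the log2 scale and 76% of those changed by 1. A gene that was not called is thus not shown to be unchanged. DESeq2 1.42.0, other normalisations, filters, group sets and omission of each rat were tried as alternatives.

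The genes and lists were chosen with earlier results of these data known. Values in every rat are given for the ligases, the catalytic subunits, Psme1 to Psme4, Psmf1 and, of the other genes, at most 8 of those called that had an average log2 CPM of at least 1, plus the 5 with the smallest unadjusted p in MI + UA versus MI. Pathway genes named are those called, at most 4 a list, with Psmb8, Psmb9, Psmb10, Nfe2l1, Foxo1 and Foxo3 named whatever their values. Promoters were taken from RefSeq (GRCr8), and genome coordinates of the 2 builds were not mixed. Paaf1, Foxo4 and Pln were on the lists and were not analysed here, and 1 further item is not reported here.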

Additional observations from a re-analysis of the deposited data

Results flagged for a closer look

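Among 90 sets of 4 rats examined (each named gene's CPM or ratio in each group), 2 held a rat that stood apart from the other 3, where about 1 set in 20 would do so by chance. Trim54 in the MI rats was highest in rat 57, at 68.1 CPM, with the nearest rat at 48.2 CPM and the lowest at 45.3 CPM, so that the gap made up 0.869 of the range. Trim63 and Trim55 were also highest in rat 57 among the MI rats, and Fbxo32 was lowest in it. Psmd13 in the MI + UA rats was highest in rat 66, at 9.51 CPM, with the nearest rat at 9.07 CPM and the lowest at 8.99 CPM, a gap of 0.851 of the range. The group of rat 66 differs between the sources, and with rat 66 counted in MI the Psmd13 values of the groups overlapped.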

How the results depend on the processing

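The count of genes called in MI versus Sham was 11 and lay between 8 and 13 under the 8 alternatives other than omission of a rat, among them 13 with DESeq2 and 8 with no filter on low counts. Omission of 1 rat gave 5 to 11 in MI versus Sham, 3 to 9 in MI + UA versus Sham (6 with all rats) and 0 throughout in MI + UA versus MI. With no filter, 3 of 22587 genes were called in MI + UA versus MI, none of them described here. Every called gene was lower under every alternative. With rat 66 counted in MI, differences near 0 changed sign: in MI + UA versus MI, Trim63 became -0.17, Psmb6 -0.0187 and Psmb4 0.0203, and Fbxo32 relative to the cardiomyocyte markers became 0.0100 in MI versus Sham. The cause was not tested. Omission of 1 rat moved the latter between -0.0747 and 0.10 and, in MI versus Sham, Psmb8 relative to Psmb5 between -0.48 and 0.12 and Psmb9 relative to Psmb6 between -0.26 and 0.0346. In MI + UA versus MI, Trim63 relative to the markers ranged from -0.15 to 0.0604 and Psmb8 relative to Psmb5 from -0.0505 to 0.41. Log2 fold changes of single genes that crossed 0 on omission of 1 rat ran, in MI + UA versus MI, from -0.0924 to 0.16 for Trim63, -0.13 to 0.0420 for Trim55, -0.0963 to 0.0222 for Psmb4, -0.00684 to 0.0600 for Psmb6 and -0.0949 to 0.0181 for Psmd12. In MI + UA versus Sham they ran from -0.0321 to 0.0515 for Psme3, -0.00248 to 0.15 for Psmd13 and -0.0608 to 0.0289 for Psmc3, and in MI versus Sham from -0.18 to 0.0663 for Psme2. No paired analysis was possible because each rat was in 1 group and rat numbers were not shared between groups. Low counts, such as those of Psmg3, Psmg4 and Psmf1, limit what depth could show.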
